A study of Rattus norvegicus with 6 samples.

Results

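The Slc25 genes encode the mitochondrial solute carriers, a family of nuclear genes whose proteins sit mostly in the inner mitochondrial membrane and exchange metabolites between the cytosol and the matrix. They were taken from the array by gene symbol: every transcript cluster (the array's unit, usually a gene) that carried a single symbol of the form Slc25a followed by a number. Of the 29489 clusters, 49 carried such a symbol, and the brightest cluster of each symbol left 47 genes of 20154 named genes in all. The symbol rule used no comparison between the groups. All 47 symbols were found in the RefSeq gene table of the rat assembly GRCr8.

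Carriers of this family move ADP in and ATP out, bring in phosphate, pass the reducing equivalents of the malate-aspartate shuttle, and carry amino acids, carnitine esters, nucleotides, cofactors, iron and glutathione. In neurons the ADP/ATP carriers and the aspartate/glutamate carrier serve the energy supply of synapses, and the glutathione carriers feed the antioxidant pool of the matrix. Slc25a39 and its close relative Slc25a40 have been identified as the carriers that bring glutathione into mitochondria in mammalian cells.

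The question was how gene expression in the rat hippocampus differs right after a short course of intense noise. Female Sprague-Dawley (SD) rats aged 3 weeks heard white noise at 115 dB SPL, 4 hours a day, over 3 days, or stayed in an identical chamber without the noise. The labels name no genetic change in either group. Rats of both groups were anaesthetised with Zoletil and xylazine for a hearing test some hours before they were killed. Each of the 3 control arrays (1, 2 and 6) and the 3 noise arrays (2, 3 and 4) held hippocampal RNA pooled from 2 rats, and the methods describe the dissection as the dorsal CA3 region.

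The values are deposited log2 signals of Affymetrix Rat Gene 2.0 ST arrays with a median of 5.05 on every array, and Pearson's r between arrays across clusters was 0.981 to 0.9905. With so few arrays their number limits the precision, and what varies from array to array is the pool. Markers of hippocampal neurons were high on all arrays, with a mean of 7.85 to 8.08 over 15 genes. Markers of choroid plexus, a neighbouring tissue, had a mean over 18 genes of 7.21 on control 1, 6.59 on control 2 and 5.59 on control 6, but 5.02 to 5.24 after noise, and 11 of the 18 passed an unadjusted p of 0.05 in limma as lower in the noise group, beside 4.9% of all genes. Of the thalamus markers 5 of 11 and of the medial habenula markers 5 of 10 passed in the same direction. In bulk tissue, fewer cells of a type and less RNA per cell cannot be told apart.

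Most of the Slc25 genes differed little between the groups. The median log2 difference of the 47 genes, noise minus control, was 0.03, against 0.00 for all genes, and the median size of the difference irrespective of sign was 0.10, against 0.11. In 36 of the 47 genes the difference was smaller than 0.2 and in 24 smaller than 0.1, beside 15295 and 9563 of all 20154 genes. Positive differences were found for 31 genes and negative ones for 16, and 50.4% of all genes had a positive difference. The other 309 Slc genes on the array also had a median of 0.03.

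Only Slc25a39 and Slc25a47 passed an unadjusted p of 0.05 in limma (a linear model that shares variance estimates across clusters), and both were higher in the noise group. These 2 of 47 genes are 4.26%, beside 4.32% of all genes that passed as higher. No Slc25 gene passed as lower, beside 4.9% of all genes. Under the thresholds of the study, a fold change of 1.5 together with an unadjusted p of 0.05, limma called 0 of the 47, beside 0.288% of all genes higher and 0.59% lower. After Benjamini-Hochberg adjustment over all clusters limma called 0 as well, beside 0.0149% of all genes at an adjusted p of 0.05. The control and noise arrays did not overlap for 6 genes, which is 12.8% of the family beside 17.2% of all genes. In 4 of them the noise arrays were all higher (8.51%, beside 8.37%) and in 2 all lower (4.26%, beside 8.87%). The methods' t-test on the same values gave 1 higher (Slc25a39) and 1 lower (Slc25a16) at an unadjusted p of 0.05, beside 4.38% of all genes higher and 4.89% lower, and 0 after adjustment, beside 0.0% of all genes. These counts of calls are close to or below the share among all genes.

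**Figure D1:**
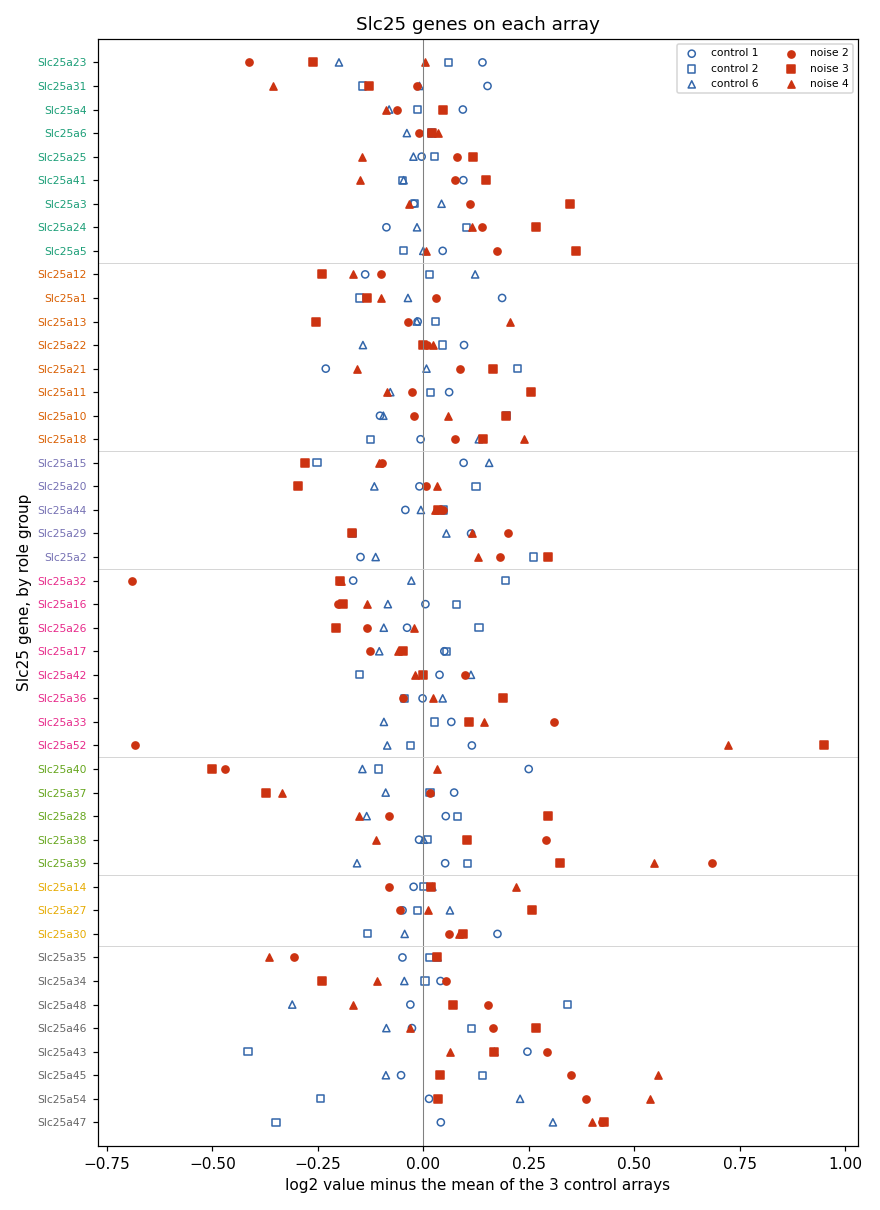
Log2 value of 46 Slc25 genes on each of the 6 arrays, less the mean of the gene's 3 control arrays, with genes grouped by what they carry (colours of the names, grey lines between groups; the order of groups is nucleotides and phosphate, organic acids, amino acids, cofactors, iron and glutathione, uncoupling-like, no settled substrate). Open symbols are control arrays and filled symbols noise arrays. Slc25a39, Slc25a47, Slc25a33 and Slc25a24 have all filled symbols to the right of all open ones. Slc25a52 has the widest spread, from 2.62 to 4.26 among noise arrays before the control mean is taken off.

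The range of differences compatible with these arrays was given by the 95% interval of each log2 difference from limma. The interval lay wholly within a 1.5-fold change in either direction for 39 of the 47 genes, or 83.0%, beside 82.0% of all genes. The 8 other genes were Slc25a39, Slc25a47, Slc25a32, Slc25a40, Slc25a43, Slc25a45, Slc25a52 and Slc25a54.

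**Figure D2:**
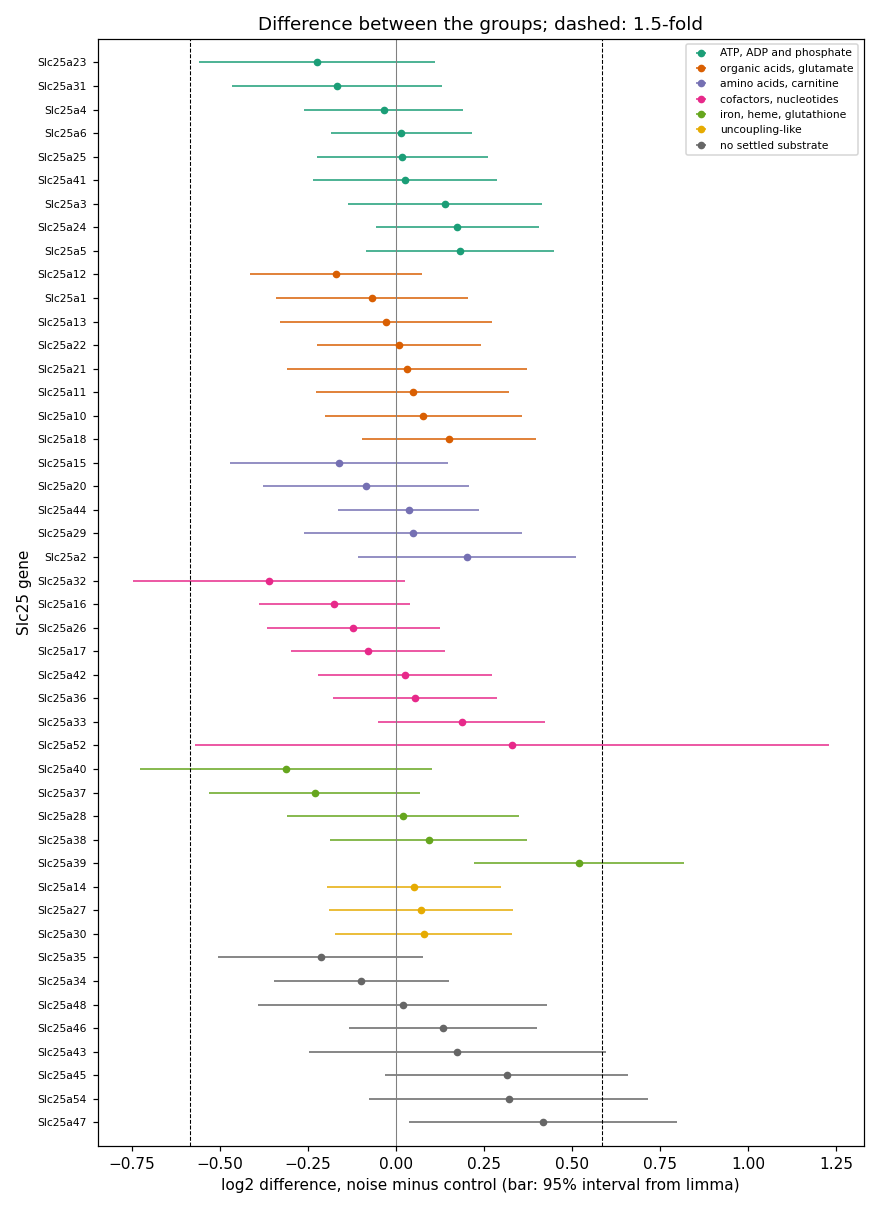
Log2 difference of 46 Slc25 genes, noise minus control (points), with the 95% interval from limma (bars) over 3 arrays per group; dashed lines mark a 1.5-fold change. The bars of 38 of these 46 genes stay between the dashed lines, and the bars of Slc25a39 (0.22 to 0.82) and Slc25a47 (0.04 to 0.80) lie above 0.

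Slc25a39, a carrier of glutathione, had the largest positive difference of the family. Control arrays 1, 2 and 6 read 5.57, 5.62 and 5.36 on the log2 scale, and noise arrays 2, 3 and 4 read 6.20, 5.84 and 6.06. Every noise array was above every control array. The log2 difference was 0.52 (SE 0.128, 95% interval 0.22 to 0.82), a 1.43-fold higher signal, with an unadjusted p of 0.00416 and an adjusted p of 0.357 in limma. An exact two-sided permutation test of the 6 arrays gave p = 0.1, the smallest that 3 against 3 allows. Of the 17 alternative settings tried, 3 repeat the main result for this gene and 14 could change its p. Several of the 14, such as the t-tests and the variance trend, keep its array values and change only the estimate of their spread. The log2 differences ran from 0.44 to 0.68. Control 6 as the only control leaves no spread among controls, so only the difference is given for it. In the other settings the unadjusted p was at most 0.05 and the adjusted p was 0.176 to 0.754. With control 6, the control array lowest in choroid plexus markers, as the only control, the difference was 0.68; control 6 was also the control array with the lowest Slc25a39 value. The part of the choroid plexus, thalamus and habenula markers in the Slc25 values was not tested. RefSeq lists 8 pseudogenes of Slc25a39, and how far the probes read them was not tested.

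Slc25a40, the other glutathione carrier of the family, had values of 5.76, 5.40 and 5.37 among controls against 5.04, 5.01 and 5.54 with noise. Noise arrays 2 and 3 were below all controls and noise 4 lay within the control range. The log2 difference was -0.31 (95% interval -0.73 to 0.10, limma adjusted p = 0.579). Without noise 4 it was -0.48, with an unadjusted limma p of 0.0159. When any other array was left out it was -0.38 to -0.19, with unadjusted limma p-values from 0.106 to 0.345. With control 6 as the only control it was -0.17. The change of Slc25a39 less the change of Slc25a40, taken within each array after the values were seen, was 1.15 on noise 2, 0.83 on noise 3 and 0.51 on noise 4, with control arrays between -0.20 and 0.21. The pair was chosen on its values, so these differences are a description.

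The promoters of these 2 genes are shown from the RefSeq-based table of assembly GRCr8. Their estimated differences had opposite signs, but the interval of Slc25a40 spanned 0 and its groups overlapped. Each promoter is a window of 300 bases that ends a short way past the gene start, read on the minus strand. The Slc25a39 promoter lies at chr10:87866924-87867223 and the Slc25a40 promoter at chr4:26631334-26631633. Capitals mark the letters GGGCGG on either strand, the core of the site bound by Sp1, a general activator of housekeeping genes.
Slc25a39: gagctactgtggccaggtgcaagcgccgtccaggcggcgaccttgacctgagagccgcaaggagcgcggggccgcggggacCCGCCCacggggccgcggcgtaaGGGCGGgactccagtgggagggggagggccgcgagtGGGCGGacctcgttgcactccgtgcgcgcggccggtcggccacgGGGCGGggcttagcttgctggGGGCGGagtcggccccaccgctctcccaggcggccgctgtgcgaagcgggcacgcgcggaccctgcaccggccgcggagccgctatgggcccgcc
Slc25a40: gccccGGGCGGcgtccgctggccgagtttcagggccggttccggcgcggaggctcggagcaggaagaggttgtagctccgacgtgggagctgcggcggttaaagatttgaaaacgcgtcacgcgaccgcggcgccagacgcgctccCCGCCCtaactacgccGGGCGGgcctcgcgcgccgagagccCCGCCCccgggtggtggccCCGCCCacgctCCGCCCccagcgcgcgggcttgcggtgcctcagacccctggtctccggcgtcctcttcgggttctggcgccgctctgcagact
Both are rich in G and C (77.7% and 74.0%), and they hold 5 and 6 matches. A promoter was found for 39 of the 47 genes, and 26 of these (66.7%) hold GGGCGG, beside 33.1% of the 33469 promoters in the table. Here and below, the family shares count genes with a match in any of their promoters, whereas the table shares count single promoters. The shares were not matched for G and C content. The Slc25a39 and Slc25a40 promoters have more G and C than 98.2% and 96.0% of all promoters. CCGGAAG, read by ETS factors, was in 7 of the 39 (17.9%, beside 8.75%), CCAAT in 21 (53.8%, beside 37.5%) and the CRE letters TGACGTCA in 2 (5.13%, beside 1.83%). The other letters searched on both strands were the shorter CRE core TGACG (30.8%, beside 21.2%), which lies within TGACGTCA, TGANTCA of AP-1 (5.13%, beside 7.33%), the E-box CACGTG (10.3%, beside 6.42%), the palindrome of NRF1 (0 of 39, beside 0.852%) and that of the glucocorticoid receptor (0 of 39, beside 0.0149%). These motifs and both promoters were chosen after the array values were seen, and a match is a description of the letters.

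The remaining carriers of iron and heme precursors gave no call. Slc25a37 (mitoferrin-1, the iron importer of developing red cells) had values of 5.14, 5.08 and 4.98 without noise and 5.08, 4.69 and 4.73 after it. Noise 2 lay among the controls and the other noise arrays below them, and the log2 difference was -0.23 (95% interval -0.53 to 0.07, limma adjusted p = 0.574). Without noise 2 it was -0.35, with an unadjusted limma p of 0.0153. When any other array was left out it was -0.27 to -0.16, with unadjusted limma p-values from 0.114 to 0.289. With control 6 as the only control it was -0.14. Slc25a28 (mitoferrin-2, the iron importer of other tissues) differed by 0.02, and Slc25a38, a glycine carrier needed for heme synthesis, by 0.09. The 3 control values of Slc25a38 were within 6.02 to 6.04 and its noise values ran from 5.91 to 6.32. Of 11 erythroid markers none passed an unadjusted p of 0.05 in limma, and their mean was 5.36 to 5.51 in the control group and 5.36 to 5.48 in the noise group.

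**Figure D3:**
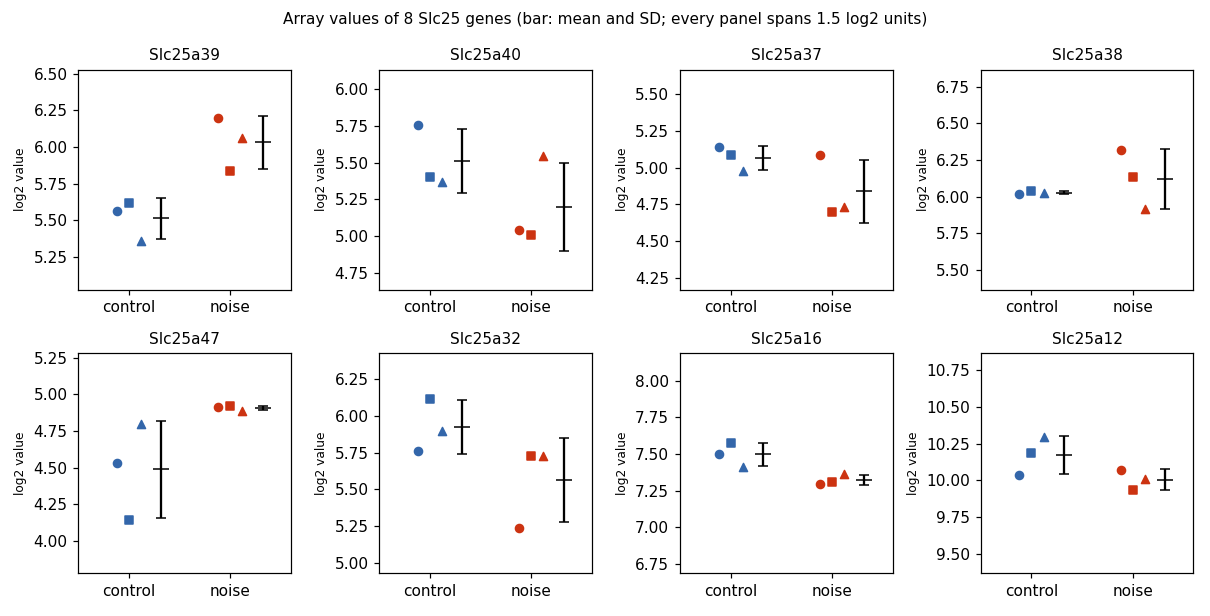
Log2 values of 8 Slc25 genes on each array (circle, square and triangle are control 1, 2 and 6 or noise 2, 3 and 4), with the mean and SD of each group as a bar; every panel spans 1.5 log2 units. Noise values of Slc25a39 and Slc25a47 lie above all control values and those of Slc25a32 and Slc25a16 below them, whereas the groups of Slc25a40, Slc25a37, Slc25a38 and Slc25a12 overlap.

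Slc25a47, a carrier best known from liver, was the other gene with an unadjusted p below 0.05. It was dim, with values of 4.53, 4.14 and 4.80 across the control arrays, 4.91, 4.92 and 4.89 across the noise arrays, and so lay under the median of all clusters. The noise arrays were nearly equal and all above the controls, of which control 6 was close to them. The log2 difference was 0.42 (SE 0.163, 95% interval 0.04 to 0.80, limma p = 0.0353, adjusted p = 0.465, exact permutation p = 0.1). The call was lost when any array other than control 6 was left out, with p between 0.0628 and 0.0903 in limma. The difference was then 0.24 without control 2 and 0.41 to 0.44 without control 1 or any noise array, beside 0.57 without control 6. It was 0.11 with control 6 as the only control. Its neighbour on the chromosome in RefSeq, the basic amino acid carrier Slc25a29, differed by 0.05.

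Among carriers of cofactors and nucleotides, Slc25a32, which takes folate and FAD into the matrix, had the largest negative difference of the family. Its values were 5.76, 6.12 and 5.90 for the controls and 5.23, 5.73 and 5.73 for the exposed rats. Every noise array was below every control array, by a narrow gap for noise 3 and 4, and the log2 difference was -0.36 (95% interval -0.75 to 0.03, limma p = 0.0636, adjusted p = 0.516, exact permutation p = 0.1). It was -0.20 without noise 2. Slc25a16, linked to coenzyme A transport, was read by a pair of clusters, and in each of them all noise arrays were below all control arrays. The brighter cluster had 7.50, 7.58 and 7.41 among controls against 7.30, 7.31 and 7.36 with noise, a log2 difference of -0.17 (limma adjusted p = 0.554). The dimmer cluster, which the choice of the brightest set aside, had 5.25, 5.49 and 5.46 against 5.22, 5.02 and 5.06, a log2 difference of -0.30 with an unadjusted limma p of 0.0282 and an adjusted p of 0.445. Slc25a33, a pyrimidine nucleotide carrier, was the cofactor and nucleotide carrier with all noise arrays above the controls, at 0.19 (limma adjusted p = 0.564).

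Slc25a52, an NAD+ carrier in humans, was dim and gave the widest interval of the family. Its values were 3.42, 3.28 and 3.22 without noise and 2.62, 4.26 and 4.03 after it. Noise 2 was below and noise 3 and 4 above all controls, so that the log2 difference of 0.33 had an SE of 0.385 (limma adjusted p = 0.806). Without noise 2 it was 0.84, with an unadjusted limma p of 0.000479 and an adjusted p of 0.480. It was 0.02 without noise 3 and 0.13 without noise 4. The related NAD+ carrier Slc25a51 was present on the array under Mcart1, a synonym in RefSeq, and so fell outside the symbol rule. It was looked at after its values were seen, and they were 5.90, 6.15 and 5.95 across the control arrays, 5.66, 5.76 and 5.24 across the noise arrays. All noise values of Mcart1 were below all control values (log2 difference -0.45, SE 0.155, limma adjusted p = 0.432, unadjusted p below the threshold). The other carriers of cofactors and nucleotides, among them the coenzyme A carrier Slc25a42 (0.03) and the S-adenosylmethionine carrier Slc25a26 (-0.12), overlapped between the groups.

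The carriers of ADP, ATP and phosphate showed no call among 9 genes, and all 9 intervals were within 1.5-fold. Slc25a4, the ADP/ATP carrier ANT1 of heart, muscle and brain, had values of 10.25, 10.14 and 10.07 for the controls and 10.09, 10.20 and 10.07 for the exposed rats. The groups overlapped throughout, and the log2 difference was -0.03 (95% interval -0.26 to 0.19). The other ADP/ATP carriers differed by 0.18 (Slc25a5, ANT2), 0.02 (Slc25a6, ANT3) and -0.17 (Slc25a31, the germ cell form ANT4, with the lowest signal of the family at 2.78). RefSeq lists 9 pseudogenes of Slc25a5, and 1 of them (Slc25a5-ps9, LOC691309 on the array) differed by -0.06. Its row was brighter (mean 8.50) than the Slc25a5 cluster (6.60), and which transcripts either set of probes reads was not tested. The phosphate carrier Slc25a3 differed by 0.14. Of the calcium-regulated ATP-Mg/phosphate carriers, Slc25a24 had 4.63, 4.82 and 4.71 among controls against 4.86, 4.99 and 4.84 with noise, without overlap (log2 difference 0.17, limma adjusted p = 0.581), and Slc25a23 differed by -0.22 with overlap.

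The carriers of organic acids and of the malate-aspartate shuttle also gave no call among 8 genes, and all 8 intervals were within 1.5-fold. Slc25a12 (aralar), the aspartate/glutamate carrier of brain, had 10.04, 10.19 and 10.30 without noise and 10.07, 9.93 and 10.01 after it. Only control 1 lay within the range of the noise arrays, and the log2 difference was -0.17 (limma adjusted p = 0.611), the same to 2 decimals as in its other cluster (adjusted p = 0.626). Its partner in the shuttle, the oxoglutarate/malate carrier Slc25a11, differed by 0.05 (95% interval -0.23 to 0.32). The liver form citrin (Slc25a13) differed by -0.03, the glutamate carriers Slc25a22 and Slc25a18 by 0.01 and 0.15, the citrate carrier Slc25a1 by -0.07 and the dicarboxylate carrier Slc25a10 by 0.08. Slc25a21, the oxodicarboxylate carrier, was dim (3.19) and differed by 0.03.

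In the remaining groups no gene but Slc25a47 was called. The 5 carriers of amino acids and carnitine, among them the carnitine/acylcarnitine carrier Slc25a20 (-0.09) and the branched-chain amino acid carrier Slc25a44 (0.04), had differences from -0.16 to 0.20. The 3 uncoupling-like carriers Slc25a14, Slc25a27 and Slc25a30, of which Slc25a14 and Slc25a27 are known as brain forms, differed by 0.05, 0.07 and 0.08. Of the 8 genes without a settled substrate, Slc25a45 had 4.29, 4.48 and 4.25 across the control arrays, 4.69, 4.38 and 4.90 across the noise arrays, with noise 3 inside the control range (log2 difference 0.31, limma adjusted p = 0.521). Slc25a54 was close to the lowest signal of the family, with 2.65, 2.39 and 2.87 against 3.02, 2.67 and 3.18 (log2 difference 0.32, limma adjusted p = 0.557). Slc25a46, an outer membrane protein of mitochondrial dynamics, differed by 0.13.

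Other mitochondrial genes were set beside the carriers as 8 lists. At an unadjusted p of 0.05 in limma, 6 of their 132 members passed and none reached the study's thresholds. The 4 that were higher are 3.03% of the members, beside 4.32% of all genes, and the 2 that were lower are 1.52%, beside 4.9%. The uncoupling proteins and carrier homologues outside the Slc25 symbols gave 1 of 5, the dim Ucp1, the uncoupler of brown fat, which had 2.68, 2.94 and 2.87 against 3.37, 3.26 and 3.09 (log2 difference 0.41, limma adjusted p = 0.366). None of 18 genes of pyruvate carriers, calcium uptake and channels, none of 13 carrier import genes and none of 9 enzymes of the shuttles passed. Of 14 ATP synthase genes Atp5h was higher (0.37) and Atp5i lower (-0.28), and of 36 complex I genes Ndufs7 was higher (0.33).

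In the list of heme, iron-sulfur and glutathione genes, 2 of 24 passed in either direction, beside 9.22% of all genes. Gclm, the modifier subunit of the enzyme that limits glutathione synthesis, had 7.38, 7.30 and 7.15 for the controls and 6.56, 6.86 and 7.06 for the exposed rats. All noise values were under all control values (log2 difference -0.45, SE 0.143, limma adjusted p = 0.403), where Slc25a39 was higher. The catalytic subunit Gclc differed by 0.07 and glutathione reductase (Gsr) by -0.05. The 13 regulators of mitochondrial biogenesis had a median of -0.16, and none passed the unadjusted p of 0.05 in limma. Of them 10 were below 0 and 3 above, beside 50.4% of all genes above 0.

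**Figure D4:**
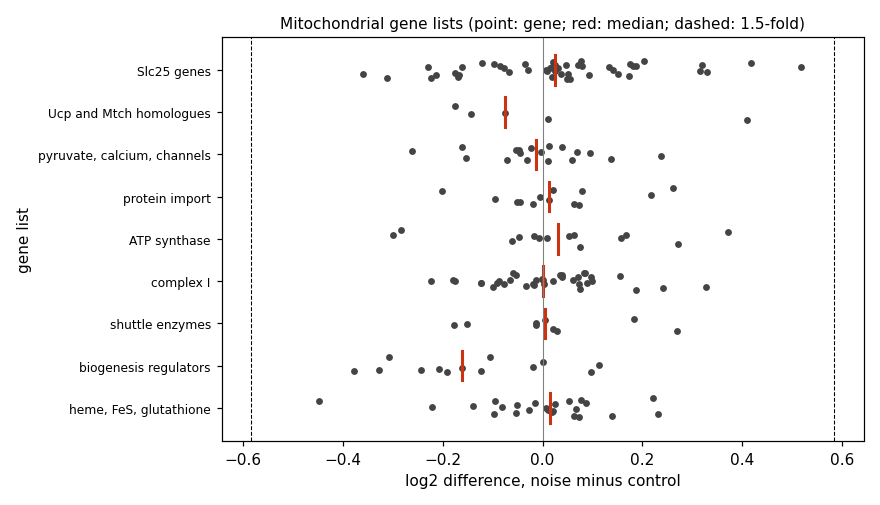
Log2 differences, noise minus control, of the Slc25 genes and of 8 lists of other mitochondrial genes (points are genes, red bars medians, dashed lines a 1.5-fold change). No gene of any list lies beyond the dashed lines; the medians run from -0.16 for the biogenesis regulators to 0.03.

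Within the family the arrays did not shift together. The median deviation of the 47 genes from their own means was between -0.03 and 0.05 on every array. Noise 3 held the highest value of 13 genes (27.7%), and it held the highest value of 22.4% of all genes. The SD was larger in the noise group for 27 of the 47 genes, with a median SD of 0.15 in the noise group and 0.12 in the control group, beside 0.14 and 0.11 over all genes.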

How the data were processed

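Hippocampal RNA of 6 pools was measured on 1-colour arrays. The authors ran RMA (Robust Multi-Array Average) in GeneSpring GX with default options and deposited the log2 output, which was taken without change. RMA corrects background, equalises the distributions of the arrays and summarises probes, so that values are relative within the array and hold no detection call. The deposited workbook also holds the authors' group means, fold changes and p-values, on the sheet of all clusters and on further sheets of selected ones, and none was used. Its right-hand annotation block belongs to other rows and was not used.

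All 29489 clusters were fitted with limma 3.58.1 in R 4.3.3 (lmFit and eBayes, group as the only term, prior of 3.47 degrees of freedom), and p-values were adjusted over all of them (Benjamini-Hochberg). Summaries were made in Python 3.11.15. The fit was tested on simulated data for all 29489. A log2 change of 0.5 was found at an unadjusted p of 0.05 in 84% of 50 simulated cases, one of -0.5 in 86%, and changes of 1 and -1 in 98% each, against 5.42% of 29289 cases without change. The genes described in full were Slc25a39, those with an unadjusted p of at most 0.05, the 3 largest differences in each direction and the 3 brightest and dimmest, and others, such as Slc25a16, Slc25a38 and the 8 genes plotted singly, were added by role after their values were seen. The members, lists and named genes were chosen with earlier results of these data known. Symbols placed 236 of 253 list entries on the array, RefSeq synonyms placed 6 and 11 stayed unmatched. Alternatives were the deposited series matrix, 2 normalizations, array weights, a trend in the variance, only bright clusters, the methods' t-test and its Welch version, other choices of cluster, control 6 alone, and leaving out each array. Labels do not say more about the pools, so p-values measure the spread between arrays. The values of 2 single genes are not reported here.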

Additional observations from a re-analysis of the deposited data

How the results depend on the processing

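At an unadjusted p of 0.05 the Slc25 genes counted as higher (2) became 1 with the methods' t-test and with its Welch version. They became 1 to 3 when an array was left out. Among the clusters brighter than the median, 36 of the 47 genes were tested and 1 was higher (Slc25a39). Genes counted as lower (0) became 2 with a variance trend and robust fit (Slc25a16 and Slc25a32), 1 among the brighter clusters, with each t-test and with the mean of all clusters of a gene, and 0 to 2 when an array was left out. Past the study's thresholds (0) there were 0 to 1 when an array was left out: Slc25a52 without noise 2 and Slc25a39 without noise 3. The median difference of 0.03 was 0.010 to 0.070 when an array was left out. Of the 132 members of the other mitochondrial lists, the 6 called became 12 with the trend and robust fit, and 3 to 9 when an array was left out. Apart from the methods' t-test, no share of all genes was set beside the counts of these settings. How far the calls among all genes moved with them was not tested. Differences close to 0 changed sign: with an array left out, Slc25a21 ran from -0.084 to 0.14, Slc25a4 from -0.076 to 0.012 and Slc25a11 from -0.056 to 0.11, and Slc25a4 was 0.046 with control 6 as the only control. Fits with fewer arrays have fewer degrees of freedom, and the filter for bright clusters left the dim Slc25a47 untested. The causes of the other shifts were not tested. With control 6 alone, its spread is taken from the noise group. No Slc25 gene passed an adjusted p of 0.05 under any setting run. No paired analysis was run, because the groups were pools of different rats and the replicate numbers name no pairs.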

Other observations

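Of other array rows that the symbol rule left out, RGD1565119 read 5.08, 5.40 and 5.54 among controls against 5.05, 4.31 and 5.12 with noise (log2 difference -0.51, limma adjusted p = 0.510), and RGD1561206 was near the bottom of the scale at 2.05 (log2 difference 0.13). Both rows were picked after their values were seen and were not counted among the 47 genes. In RefSeq 13 of the Slc25 genes have pseudogenes, 30 in all. Members that neighbour each other on a chromosome were Slc25a54 (0.32) with Slc25a24 (0.17), Slc25a29 (0.05) with Slc25a47 (0.42), Slc25a41 (0.03) with Slc25a23 (-0.22) and Slc25a43 (0.18) with Slc25a5 (0.18), the values being log2 differences of noise minus control.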
